A study of Mus musculus with 56 samples.

Results

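The 9 genes described here encode enzymes that break down tryptophan (Tdo2, Ido2, Kmo, Kynu and Haao) and phenylalanine and tyrosine (Tat, Hpd, Hgd and Fah). They were chosen by name from the 23813 genes of a liver RNA-seq table, with the first listed transcript representing each gene, and all 9 passed the filter on low values. Liver RNA was measured in 12 libraries of male mice, 4 biological replicates in each of 3 groups. Hypothyroid WT mice were fed for 16 days on chow low in iodine to which 0.15% propylthiouracil (PTU), a blocker of thyroid hormone synthesis, had been added. Hyperthyroid WT mice were fed likewise and were given 5 μg of triiodothyronine (T3) by intraperitoneal injection during the last 4 to 6 of these days. According to the paper, mice were randomized to injections of T3 or of vehicle. The remaining group was hypothyroid on the PTU diet and carried the L-NCORdeltaID genotype (L-NCOR1ΔID), in which the liver makes a form of the nuclear receptor corepressor NCOR1 that lacks the domains for interaction with the thyroid hormone receptor. All 3 groups therefore received PTU. The L-NCOR1ΔID line was kept on a mixed C57BL/6 and 129S strain background, and the series holds no sample of L-NCOR1ΔID mice given T3. In the paper, the mean age of hypothyroid L-NCOR1ΔID mice was below that of both WT groups, over more mice than the libraries used here.

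The liver is the main site where surplus aromatic amino acids are degraded. Tryptophan 2,3-dioxygenase (Tdo2) opens the tryptophan ring to give kynurenine precursors, indoleamine 2,3-dioxygenase 2 (Ido2) is a low-activity relative, and Kmo, Kynu and Haao carry kynurenine towards quinolinate, from which NAD can be made. On the tyrosine route, Tat removes the amino group, Hpd makes homogentisate, Hgd opens its ring and Fah splits the last intermediate into fumarate and acetoacetate. Tat and Tdo2 are classic glucocorticoid-induced liver genes, and inherited loss of Fah or Hgd causes tyrosinaemia or alkaptonuria, respectively.

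Estimated depth, derived from the smallest steps between RPKM values (reads scaled by transcript length and library size), was 29060000 to 38080000 reads in hypothyroid WT, 21260000 to 26020000 in hyperthyroid WT and 38020000 to 42590000 in L-NCOR1ΔID libraries, so that depth differed between groups. The lowest number of reads behind any value of the 9 genes was about 2684 (Ido2). The mean correlation of each library with its own group was 0.974 to 0.984, and 0.930 to 0.958 with the other groups. The T3-responsive genes Thrsp and Dio1 marked the hormone state in WT mice. Thrsp ranged from 208.6 to 490.0 RPKM in hypothyroid and from 846.9 to 2360 RPKM in hyperthyroid WT libraries. Dio1 ranged from 0.719 to 57.7 RPKM and from 458.6 to 640.6 RPKM, respectively. In the hypothyroid L-NCOR1ΔID libraries, Dio1 was at 0.567 to 20.9 RPKM, whereas Thrsp was at 453.9 to 1081 RPKM and overlapped with both WT groups. The log2 difference of Thrsp from hypothyroid WT was 1.39 (limma adjusted p = 0.0542), so Thrsp does not mark the hormone state across genotypes. Ncor1 RNA in the hypothyroid state was 14.7 ± 0.665 RPKM (mean ± SD, n = 4) with the normal allele and 13.0 ± 0.844 RPKM with the mutant allele (limma adjusted p = 0.204), and a value per gene cannot show the lost exons. The 5 hepatocyte markers (Alb, Ttr, Apoa1, Trf and Hnf4a) were abundant in every library, and the 4 kidney markers were below 0.1 RPKM in every library.

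The 9 transcripts differed widely in level in hypothyroid WT liver. Hpd, Tdo2 and Tat were the most abundant, at 1378 ± 143, 1199 ± 101 and 931.6 ± 51.7 RPKM (mean ± SD, n = 4), which placed them 31st, 39th and 54th of all genes by mean RPKM. Hgd (418.1 ± 38.4 RPKM), Haao (360.0 ± 24.0 RPKM) and Fah (341.7 ± 8.70 RPKM) followed, and the ranges of neighbours among these 3 genes overlapped. Kmo (123.8 ± 5.92 RPKM), Kynu (61.4 ± 1.03 RPKM) and Ido2 (37.7 ± 7.61 RPKM) were lower, and the ranges of these 3 genes did not overlap with each other. Hpd and Tdo2 also overlapped with each other in range. Kynu and Fah were the most uniform genes in this group, with coefficients of variation of 1.68% and 2.55%, whereas that of Ido2 was 20.2%. RPKM is scaled per length, so levels can be set side by side between genes.

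Each of the 9 transcription start sites (TSSs) lay inside an H3 acetylated region of liver, as did 87.1% of the 12215 genes tested that had a position. The deposited list pools H3K27Ac and H3K9Ac regions of hypothyroid and hyperthyroid WT mice and holds positions only, so acetylation levels and their response to T3 were not analysed here. The region that holds the TSS was 28311 bp long at Tat, 22941 bp at Hgd, 22861 bp at Haao, 20706 bp at Hpd, 17733 bp at Tdo2, 17161 bp at Kmo, 14768 bp at Fah, 12692 bp at Ido2 and 7519 bp at Kynu. The median over all genes with the TSS in a region was 3990 bp, and between 76.7% (Kynu) and 98.4% (Tat) of these regions were shorter. The number of regions within 100 kb of the TSS was 4 to 8 with a median of 6, against a median of 7 over all genes. The members thus had long regions at the TSS but no more regions around it than other genes. The 9 genes were not compared with genes of the same expression level. On mm9, the region at Hpd is chr5:123618364-123639069, that at Tdo2 is chr3:81764017-81781749, and that at Tat is chr8:112501299-112529609. The other regions are chr16:37575754-37598694 (Hgd), chr17:84227817-84250677 (Haao), chr1:177550109-177567269 (Kmo), chr7:91741833-91756600 (Fah), chr8:25675069-25687760 (Ido2) and chr2:43409675-43417193 (Kynu).

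**Figure D1:**
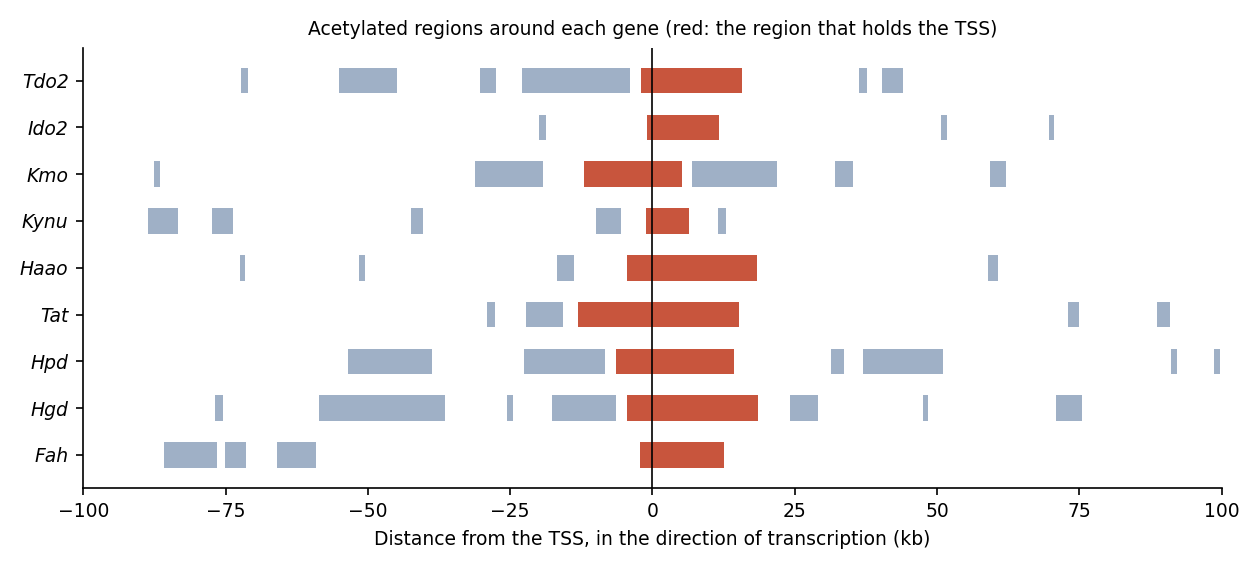
H3 acetylated regions within 100 kb of the TSS of each gene. The x axis gives the distance from the TSS in kb, in the direction of transcription, each bar is 1 region of the pooled list, and red bars hold the TSS. The region at the TSS was longest at Tat (28311 bp) and shortest at Kynu (7519 bp).

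Promoter sequence is shown for Hpd, Hgd and Haao, which fell together in response to T3 and whose window before the RefSeq start lay inside the acetylated region and outside annotated exons. The RefSeq table (GRCm38.p6) held promoters of 7 of the 9 genes, not of Kynu or Ido2, and each window of 220 bases, from 250 to 31 bases before the start, was placed on mm9 (NCBIM37) by exact match. Each sequence is on the strand of the gene, and capitals mark AGGTCA (the half-site bound by the thyroid hormone receptor and other nuclear receptors), AGAACA (a half-site of the glucocorticoid receptor), CCAAT and TATAAA on either strand.
Hpd, chr5:123632763-123632982, minus strand: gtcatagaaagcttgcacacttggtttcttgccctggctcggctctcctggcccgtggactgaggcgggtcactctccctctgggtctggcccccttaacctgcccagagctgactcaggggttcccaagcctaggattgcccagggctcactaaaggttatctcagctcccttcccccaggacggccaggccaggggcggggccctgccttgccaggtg
Hgd, chr16:37579989-37580208, plus strand: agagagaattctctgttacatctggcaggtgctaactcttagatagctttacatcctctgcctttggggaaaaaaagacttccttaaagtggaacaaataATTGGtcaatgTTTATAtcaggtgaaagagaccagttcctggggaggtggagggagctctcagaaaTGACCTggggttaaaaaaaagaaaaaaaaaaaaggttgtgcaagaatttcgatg
Haao, chr17:84246161-84246380, minus strand: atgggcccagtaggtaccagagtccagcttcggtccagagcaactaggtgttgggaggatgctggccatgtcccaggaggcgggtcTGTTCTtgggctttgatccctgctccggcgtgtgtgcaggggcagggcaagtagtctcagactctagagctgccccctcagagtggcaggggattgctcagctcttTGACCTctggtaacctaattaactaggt

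The Hpd window held none of the 4 motifs and had a GC content of 63.6%, against a median of 51.8% over 32851 promoter windows of the same length. Hgd held AGGTCA on the opposite strand at bases 84 to 79 before the start, CCAAT at bases 150 to 146 and TATAAA at bases 139 to 134, also on the opposite strand. Haao held AGGTCA at bases 58 to 53 and AGAACA at bases 164 to 159, both on the opposite strand. No 2 of these matches overlapped. Over the 7 windows, AGGTCA was found in 2 (Hgd and Haao), AGAACA in 1 (Haao), CCAAT in 3 (Tdo2, Tat and Hgd) and TATAAA in 2 (Tdo2 and Hgd). Of all windows, 12.5%, 14.4%, 31.0% and 10.0% held these motifs, respectively. A match describes the letters only. Bases closer to the start than 31 were not searched, so a motif there would be missed, TATAAA included.

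To ask how thyroid hormone changes the pathway, hyperthyroid and hypothyroid WT livers were compared. Transcript levels were lower at the entry of the tryptophan route and in the middle of the tyrosine route. Tdo2 and Hpd fell by about the same size, Hgd and Haao fell less, and Kmo was the only gene called higher. In all, 4 of 9 genes were lower and 1 of 9 was higher at an adjusted p under 0.01 (limma), against 7.71% lower and 24.5% higher of the 13941 genes tested. When a log2 fold change of more than 1 in either direction was also required, Hpd was lower and no other member passed, against 3.47% lower and 8.28% higher of all genes. The groups did not overlap for 7 of 9 genes (Ido2 and Tat overlapped), against 46.6% of all genes. Over all genes tested the log2 fold change had a median of 0.23, and over the 9 genes it was -0.16.

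**Figure D2:**
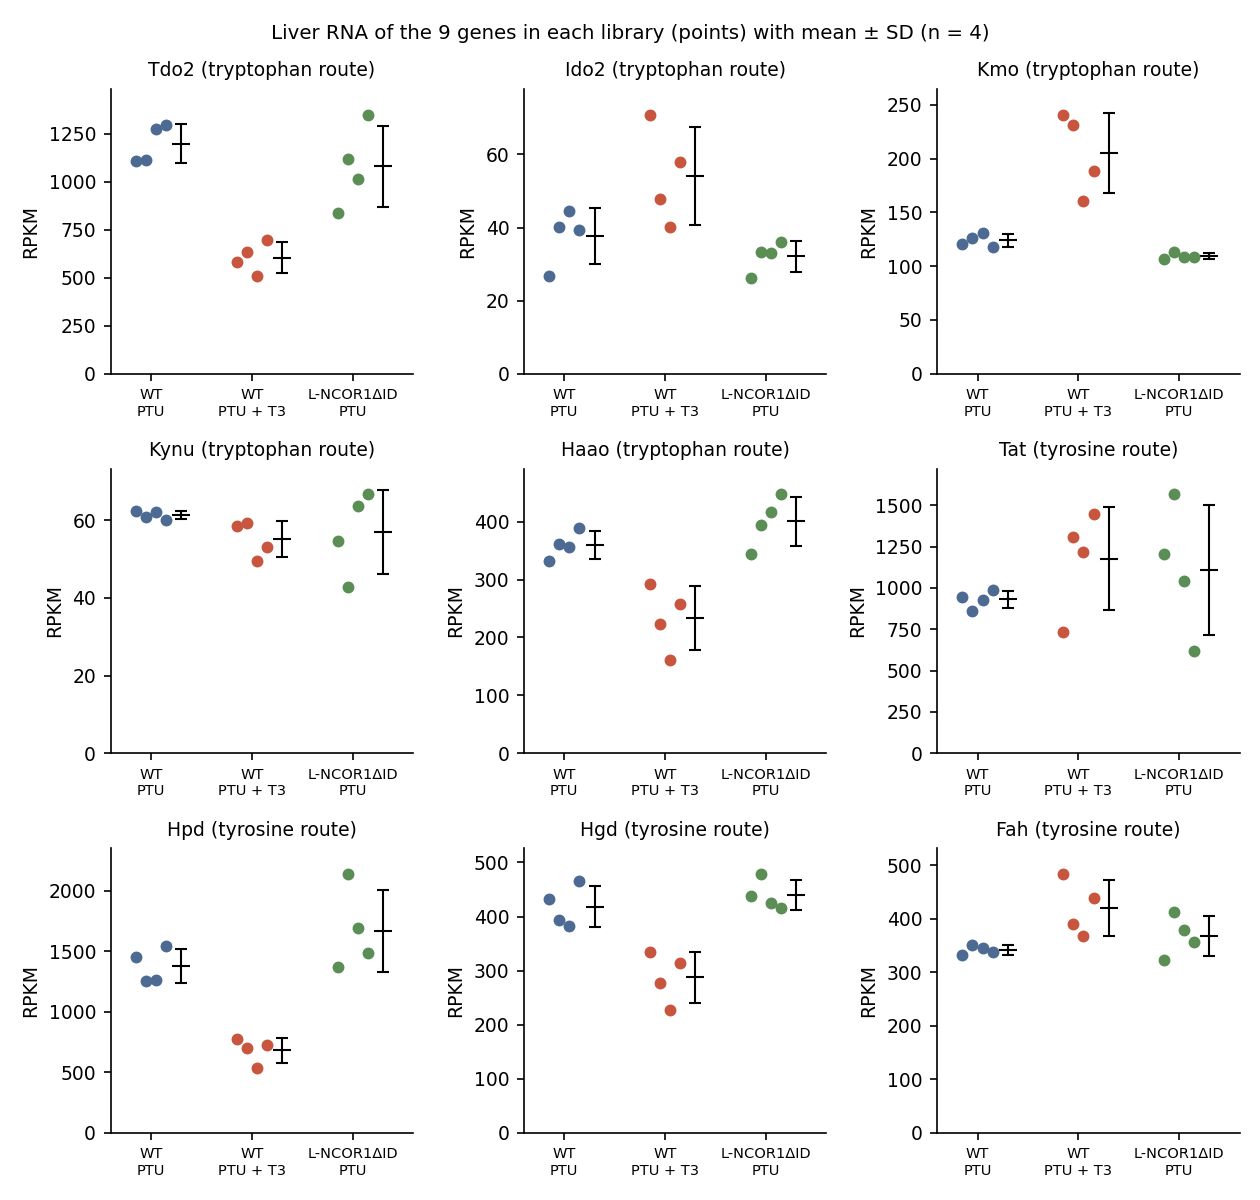
RPKM of each gene in the 12 liver libraries. Each point is 1 library, the black bar and whiskers are mean ± SD (n = 4), and each y axis starts at 0. Tdo2, Haao, Hpd and Hgd were lower in all hyperthyroid than in all hypothyroid WT libraries, Kmo was higher, and Tat overlapped between all 3 groups.

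Tdo2, the rate-limiting enzyme of tryptophan breakdown in liver, measured 1108, 1115, 1276 and 1296 RPKM in hypothyroid WT and 580.2, 632.4, 511.9 and 698.1 RPKM in hyperthyroid WT libraries. The groups were far apart, with the highest T3 library well below the lowest PTU library. The log2 fold change was -0.99 (SE 0.12, adjusted p = 0.000258), a 1.99-fold lower level, which lies just outside the fold limit.

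Haao, which makes the precursor of quinolinate, measured 331.4, 362.2, 356.6 and 389.8 RPKM without T3 and 291.7, 222.8, 161.3 and 257.1 RPKM with T3. The T3 libraries were all lower but spread widely. The log2 fold change was -0.66 (SE 0.17, adjusted p = 0.0099). This call was at the edge of the threshold and was lost in 11 of 18 alternatives, including the omission of any hypothyroid library or of hyperthyroid replicate 2 or 4 (adjusted p = 0.0134 to 0.0299). The direction was the same in all 18.

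Kmo, which hydroxylates kynurenine, went the other way. It measured 120.7, 126.1, 131.0 and 117.6 RPKM in hypothyroid and 240.5, 230.8, 160.2 and 188.8 RPKM in hyperthyroid WT libraries. Every T3 library was above every PTU library. The log2 fold change was 0.71 (SE 0.13, adjusted p = 0.00179), a 1.64-fold higher level. Kmo is also made by macrophages, and the 6 Kupffer cell and macrophage markers tested (Adgre1, Clec4f, Vsig4, Csf1r, Marco and Timd4) were all higher with T3. Their summed level was 30.3 to 41.8 RPKM in hypothyroid WT, 88.9 to 144.9 RPKM in hyperthyroid WT and 30.8 to 81.0 RPKM in L-NCOR1ΔID libraries, with none of the 6 at 0. Of the endothelial markers 3 of 5, and of the stellate cell and fibroblast markers 3 of 6, were also called higher, against 24.5% of all genes, and under the median of gene ratios these were 1 of 5 (Lyve1) and 1 of 6 (Col3a1). The macrophage markers remained 6 of 6 under that scaling, where 1729 of the 13941 genes tested were called higher. The part of these cells in the Kmo difference was not tested. In bulk liver, a change in the number of cells of a type and a change in RNA per cell cannot be told apart.

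Kynu, which cleaves kynurenine and its 3-hydroxy form, measured 62.3, 60.9, 62.2 and 60.2 RPKM without T3 and 58.5, 59.2, 49.6 and 53.2 RPKM with T3. The groups did not overlap, but the difference was small, with a log2 fold change of -0.16 (95% confidence interval -0.32 to 0.00, adjusted p = 0.0928). Ido2 measured 26.8, 40.15, 44.6 and 39.3 RPKM and 70.8, 47.7, 40.1 and 57.8 RPKM, respectively. These ranges overlapped, and the log2 fold change of 0.51 (95% confidence interval 0.06 to 0.96) did not pass (adjusted p = 0.058). The inducible relative Ido1 was at or near 0 in liver, with at most 0.153 RPKM in any library, and was not tested.

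In the tyrosine route, Hpd showed the largest change of the 9 genes in response to T3. This enzyme, whose inhibition by nitisinone is used to treat tyrosinaemia, measured 1454, 1251, 1266 and 1542 RPKM in hypothyroid and 778.0, 696.6, 536.9 and 721.8 RPKM in hyperthyroid WT libraries. The groups were clearly separated. The log2 fold change was -1.02 (SE 0.14, adjusted p = 0.000447), a 2.03-fold lower level.

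Hgd, the next enzyme, measured 432.0, 392.7, 382.0 and 465.8 RPKM without T3 and 333.8, 277.8, 226.5 and 314.4 RPKM with T3, again with no overlap. The log2 fold change was -0.55 (SE 0.13, adjusted p = 0.00744). The direction was the same in all 18 alternatives, but the call was lost in 9 of them, including the omission of any library other than hyperthyroid replicate 1 (adjusted p = 0.0104 to 0.0245).

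The first and last enzymes of the tyrosine route did not share this fall. Fah measured 331.4, 351.2, 345.8 and 338.2 RPKM in hypothyroid and 483.7, 389.9, 367.6 and 439.0 RPKM in hyperthyroid WT libraries. The T3 libraries were all higher, but the log2 fold change of 0.29 (95% confidence interval 0.07 to 0.51) did not pass (adjusted p = 0.0353) and lay close to the median of all genes. Tat, the aminotransferase that starts tyrosine breakdown, measured 945.3, 863.5, 929.5 and 988.0 RPKM and 730.6, 1306, 1217 and 1450 RPKM, respectively. Hyperthyroid replicate 1 was below all hypothyroid libraries and the other 3 were above them. The log2 fold change was 0.29 (95% confidence interval -0.16 to 0.74, adjusted p = 0.25). Without hyperthyroid replicate 1 it was 0.51 and passed the threshold (adjusted p = 0.00756).

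Hyperthyroid replicate 3 was the lowest library of its group for 8 of the 9 genes (all but Tat) and was the library with the fewest reads. It also had the highest summed macrophage markers (144.9 RPKM). Without it, Tdo2 (log2 fold change -0.91), Hpd (-0.91), Haao (-0.49) and Kmo (0.82) still passed, and Hgd (-0.44, adjusted p = 0.0114) did not. Of the genes tested, 69.9% had a log2 fold change above 0. When libraries were further scaled by the median of gene ratios, the median over all genes moved from 0.23 to 0.01 (log2) and the calls changed from 3413 higher and 1075 lower to 1729 higher and 1932 lower. Tdo2 (-1.23), Hpd (-1.26), Haao (-0.89) and Hgd (-0.78) were then lower still and Kynu was also called lower (-0.39, adjusted p = 0.00931). Kmo kept its direction but lost its call (0.47, adjusted p = 0.034), while Tat and Fah lay near 0 (0.06 and 0.05). The summed level of the hepatocyte markers was 40330 to 52620 RPKM in hypothyroid and 21410 to 29760 RPKM in hyperthyroid WT, mostly through Alb (31804 ± 4200 and 14325 ± 2510 RPKM, mean ± SD, n = 4). The 5 markers did not move together. Ttr (-1.55, adjusted p = 0.000108) and Alb (-1.16, adjusted p = 0.00818) were lower, Hnf4a was higher (0.42, adjusted p = 0.0041), and Apoa1 (0.12) and Trf (-0.33) were not called. Alb lost its call under the median of gene ratios and without hyperthyroid replicate 3, and Hnf4a under the median of gene ratios. The part of the marker changes in the lower members was not tested.

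The balance of transcripts within the pathway changed accordingly. The following ratios were chosen after the values were seen and were not tested. Tdo2 was 8.84 to 11.0 times Kmo in hypothyroid WT and 2.41 to 3.70 times Kmo in hyperthyroid WT libraries. Kmo stood at 0.302 to 0.367 of the level of Haao without T3 and at 0.734 to 1.04 with T3. Hpd was 3.56 to 4.56 times Fah without T3 and 1.46 to 1.79 times Fah with T3. None of these ranges overlapped, and a ratio within a library does not depend on its scaling. The 9 transcripts together made up 1.15% to 1.27% of the summed RPKM in hypothyroid and 0.867% to 1.05% in hyperthyroid WT libraries. With T3, Tat (1176 ± 312 RPKM) took the place at the head of the order from Hpd (683.3 ± 103 RPKM), although the ranges of Tat, Hpd and Tdo2 overlapped between neighbours.

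**Figure D3:**
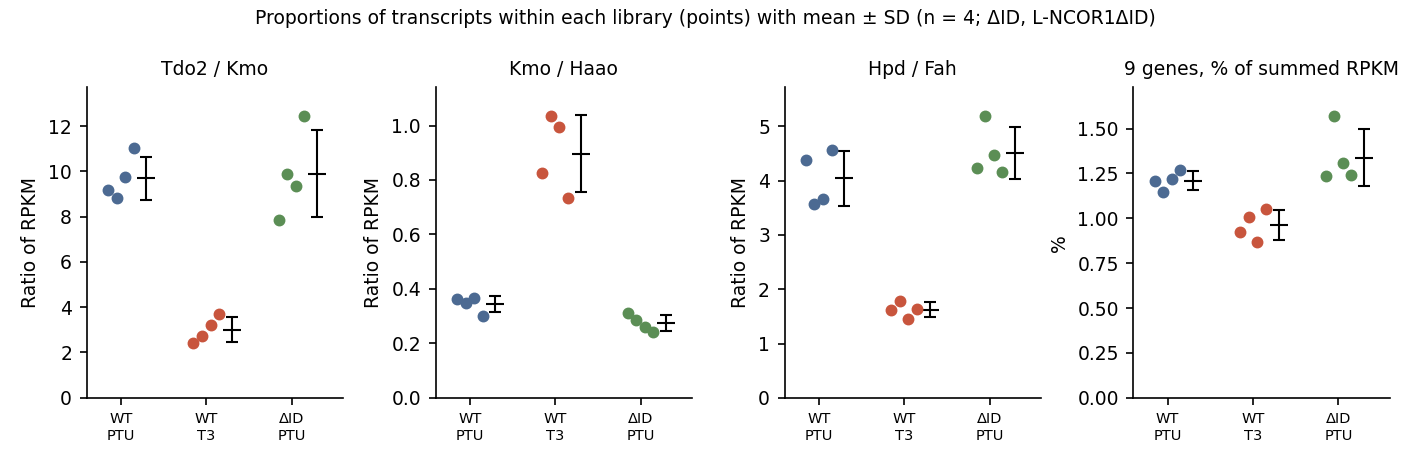
Ratios of RPKM between genes and the share of the 9 genes in the summed RPKM of each library. Points are libraries and black bars are mean ± SD (n = 4), with WT PTU, WT PTU + T3 (WT T3) and L-NCOR1ΔID PTU (ΔID PTU) on the x axis and each y axis starting at 0. Tdo2 over Kmo was 2.41 to 3.70 in hyperthyroid WT, against 8.84 to 11.0 in hypothyroid WT and 7.85 to 12.5 in L-NCOR1ΔID libraries.

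To ask whether these genes differ with the L-NCOR1ΔID genotype, mutant and WT mice were compared in the hypothyroid state. The comparison does not isolate the contact between NCOR1 and the receptor. The paper also saw less of the histone deacetylase HDAC3 at sites without the receptor, and proposes that the deleted domains may serve other regulators. Age differed between these groups as well. The paper does not state the strain background of the WT mice behind these libraries, so it is not known whether strain also differed. None of the 9 genes was called (limma, adjusted p under 0.01), against 0.725% higher and 0.544% lower of 13790 genes tested, a background at which few calls are met in any 9 genes. Kmo had the lowest limma p of the 9 genes (unadjusted p = 0.0189, adjusted p = 0.15). The hypothyroid WT libraries are the same as in the T3 comparison.

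Kmo measured 106.9, 113.0, 108.5 and 108.3 RPKM in L-NCOR1ΔID libraries, all below the hypothyroid WT libraries, and it was the only member without overlap (13.1% of all genes tested did not overlap). The difference was small (log2 fold change -0.18, SE 0.063, limma adjusted p = 0.15). Tdo2 measured 839.2, 1119, 1016 and 1349 RPKM, which overlapped with WT on both sides (log2 fold change -0.17, 95% confidence interval -0.52 to 0.18). Hpd measured 1368, 2140, 1690 and 1484 RPKM, and its log2 fold change was 0.26 (95% confidence interval -0.11 to 0.63). Both intervals end short of the log2 fold changes measured with T3 (-0.99 for Tdo2 and -1.02 for Hpd).

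Haao (0.15, 95% confidence interval -0.08 to 0.38) and Hgd (0.07, -0.14 to 0.29) had intervals around no change on the log2 scale. The same held for Fah (0.10, -0.10 to 0.31), Kynu (-0.13, -0.42 to 0.16) and Ido2 (-0.21, -0.58 to 0.15). Tat was the most variable gene in L-NCOR1ΔID mice, at 1204, 1566, 1044 and 620.4 RPKM, a 2.52-fold range within the group. Its log2 fold change of 0.18 (95% confidence interval -0.38 to 0.73) leaves differences of either sign within reach. In L-NCOR1ΔID mice, replicate 2 was the highest library for 5 genes (Kmo, Tat, Hpd, Hgd and Fah) and the lowest for Kynu, and without it the log2 fold changes of Tat and Kynu were -0.02 and 0.00. This library also had the highest summed macrophage markers of its group (81.0 RPKM), and their part in these values was not tested.

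**Figure D4:**
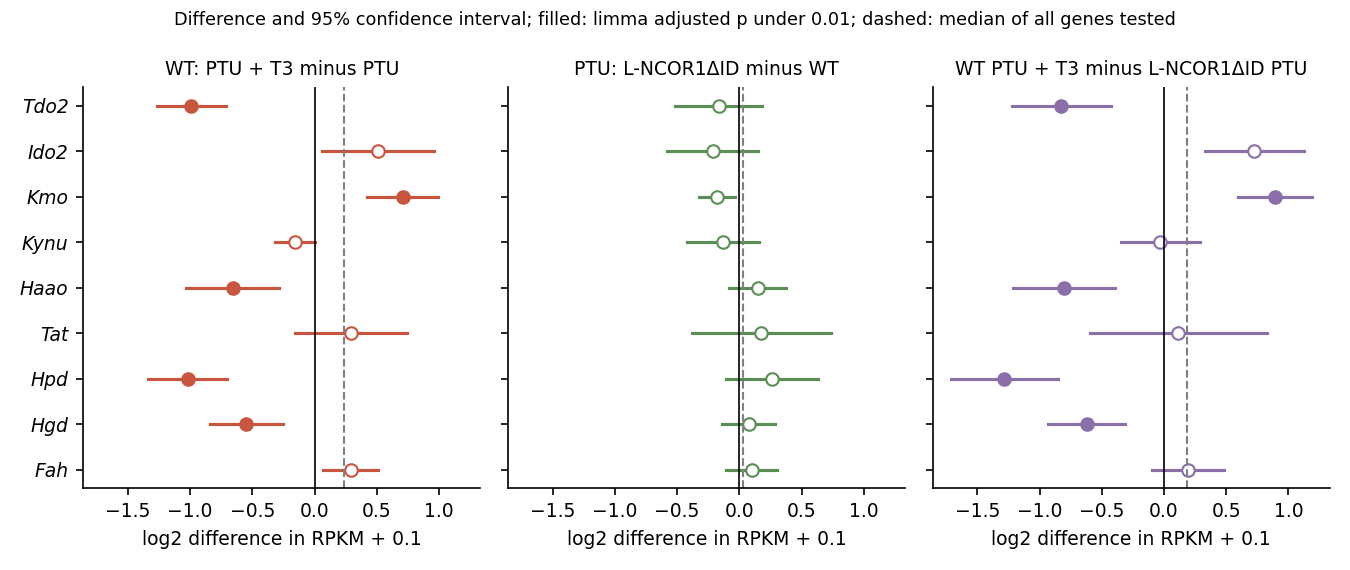
Difference in log2(RPKM + 0.1) and its 95% confidence interval for each gene in 3 comparisons, on a common x axis. Filled points have a limma adjusted p under 0.01, the solid line is no difference and the dashed line is the median of all genes tested. Filled points are Tdo2, Haao, Hpd and Hgd on the lower side and Kmo on the higher side in both comparisons that involve hyperthyroid WT mice, and no point is filled for L-NCOR1ΔID against WT.

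Hyperthyroid WT mice were also set against hypothyroid L-NCOR1ΔID mice, a comparison in which hormone and genotype differ together. The hyperthyroid libraries are those of the T3 comparison and the mutant libraries those of the genotype comparison. Here 4 of 9 genes were lower and 1 was higher, against 5.7% lower and 15.5% higher of 14017 genes tested. Hpd was 2.43-fold lower in hyperthyroid WT mice (log2 fold change -1.28, SE 0.19, adjusted p = 0.00116). Tdo2 (-0.82, adjusted p = 0.00667), Haao (-0.81, adjusted p = 0.00819) and Hgd (-0.62, adjusted p = 0.00725) were lower as well. Each of these 3 calls was lost in 7 of 8 fits with 1 library left out, with adjusted p values up to 0.021, 0.0257 and 0.0205. Kmo was 1.85-fold higher (0.89, SE 0.13, adjusted p = 0.00109). Ido2 (0.73, adjusted p = 0.0109) did not overlap between the groups but missed the threshold, which it passed without hyperthyroid replicate 3 (adjusted p = 0.00626). Tat (0.12), Fah (0.19) and Kynu (-0.03) were not called.

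The neighbouring reactions were described with a list of 35 genes of phenylalanine, tyrosine and tryptophan handling, of which 32 could be tested. In response to T3, 7 of 32 were higher, about the share over all genes tested (24.5%), and 6 of 32 were lower, against 7.71% of all genes. The median log2 fold change was -0.165. The genes called higher were mostly transporters, and all 6 called lower were enzymes. Of the genes for transport of aromatic and other large neutral amino acids, 5 of 6 tested were higher (24.5% of all genes). Under the median of gene ratios, 4 of 6 were higher, against 1729 of the 13941 genes tested, and Slc16a10 lost its call. Slc7a5 rose from 0.669 to 1.15 RPKM in hypothyroid to 3.40 to 6.36 RPKM in hyperthyroid WT libraries (log2 fold change 2.27, SE 0.23, adjusted p = 9.00e-05). Its partner Slc3a2 (1.16, adjusted p = 0.00108), Slc7a8 (1.60, adjusted p = 4.60e-05), Slc43a2 (1.15, adjusted p = 0.00111) and the aromatic amino acid exporter Slc16a10 (0.72, adjusted p = 0.0008) also rose. Slc7a8 and Slc43a2 were low in level, at 1.76 to 2.40 RPKM and 1.61 to 2.98 RPKM in hyperthyroid WT libraries. Slc43a1 went the other way and was not called (-0.96, adjusted p = 0.0307). Slc3a2, Slc43a1, Slc43a2 and, among the enzymes, Nadsyn1 were named after their values were seen.

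Among the enzymes, most of those called were lower. Of all genes tested, 24.5% were higher and 7.71% lower. Of 7 genes around tetrahydrobiopterin, a cofactor of aromatic amino acid hydroxylases, 2 were higher and 1 was lower. Gch1, the enzyme for entry into its synthesis, rose (1.58, adjusted p = 2.23e-05), Pts, the next enzyme, fell (-0.61, adjusted p = 0.000594), and Spr, which completes the cofactor, was higher by a small amount (0.26, adjusted p = 0.00857). The call of Spr, a gene named after its values were seen, was lost under the median of gene ratios and without hyperthyroid replicate 3.

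Below kynurenine, Qprt, which turns quinolinate into an NAD precursor, fell from 111.7 to 118.6 RPKM to 63.3 to 84.5 RPKM (-0.61, SE 0.10, adjusted p = 0.000989). Nadsyn1, which completes NAD, fell (-0.56, adjusted p = 0.00191), and so did Gcdh (-0.75, adjusted p = 6.73e-05), an enzyme at the end of the route to acetyl-CoA. Acmsd, which diverts carbon away from NAD, measured 12.1 to 14.3 RPKM and 3.36 to 11.6 RPKM without overlap, but its log2 fold change of -1.19 did not pass (SE 0.34, adjusted p = 0.0166). Neither did Afmid, the formamidase after Tdo2 (-0.61, adjusted p = 0.0203), nor Gstz1, the enzyme between Hgd and Fah (-0.17, adjusted p = 0.126). In the amine branch, Inmt, an amine methyltransferase, showed the most extreme value, from 325.3 to 467.4 RPKM without T3 to 3.74 to 26.4 RPKM with T3 (-5.44, SE 0.54, adjusted p = 7.75e-05), and Maob, which oxidises amines, fell as well (-0.74, adjusted p = 0.000776).

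Of these 32 genes, none was called in L-NCOR1ΔID mice (limma, adjusted p under 0.01), where 0.725% of all genes were higher and 0.544% lower, so that few or no calls are met in a list of this size. There, Acmsd was 15.1 to 41.6 RPKM against 12.1 to 14.3 RPKM in WT (0.83, adjusted p = 0.109), and Afmid 69.1 to 128.0 RPKM against 58.4 to 69.9 RPKM (0.55, adjusted p = 0.0981). Qprt (-0.04, adjusted p = 0.83) and Gstz1 (-0.22, adjusted p = 0.196) were not called. The lowest adjusted p values of the 32 were those of Ddc and Inmt, both of the amine branch. Ddc was 20.2 to 29.3 RPKM against 10.6 to 15.9 RPKM in WT (0.80, adjusted p = 0.0253). Inmt was 579.4 to 906.1 RPKM against 325.3 to 467.4 RPKM (0.76, adjusted p = 0.037). Both were named for this comparison after their values were seen. In hyperthyroid WT against L-NCOR1ΔID mice, 5 of the 32 were higher and 7 lower, against 15.5% and 5.7% of all genes. Those higher were Gch1 (1.08, adjusted p = 2.15e-05), Slc7a5 (2.69, adjusted p = 8.54e-05), Slc7a8 (1.08, adjusted p = 0.00106), Slc3a2 (1.14, adjusted p = 0.00328) and Slc16a10 (0.59, adjusted p = 0.0072). Those lower were Inmt (-6.20, adjusted p = 7.61e-05), Gcdh (-0.88, adjusted p = 0.000135), Pts (-0.76, adjusted p = 0.000212), Afmid (-1.17, adjusted p = 0.00474), Qdpr (-0.70, adjusted p = 0.00514), which recycles the cofactor, Acmsd (-2.02, adjusted p = 0.00549) and Qprt (-0.56, adjusted p = 0.00624). Acmsd, Qprt and Qdpr lost their calls without hyperthyroid replicate 3 and without L-NCOR1ΔID replicate 2, Afmid without the latter and Slc16a10 without the former and under the median of gene ratios. Under that scaling, the T3 counts were 5 higher and 10 lower, against 1729 higher and 1932 lower of the 13941 genes tested.

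**Figure D5:**
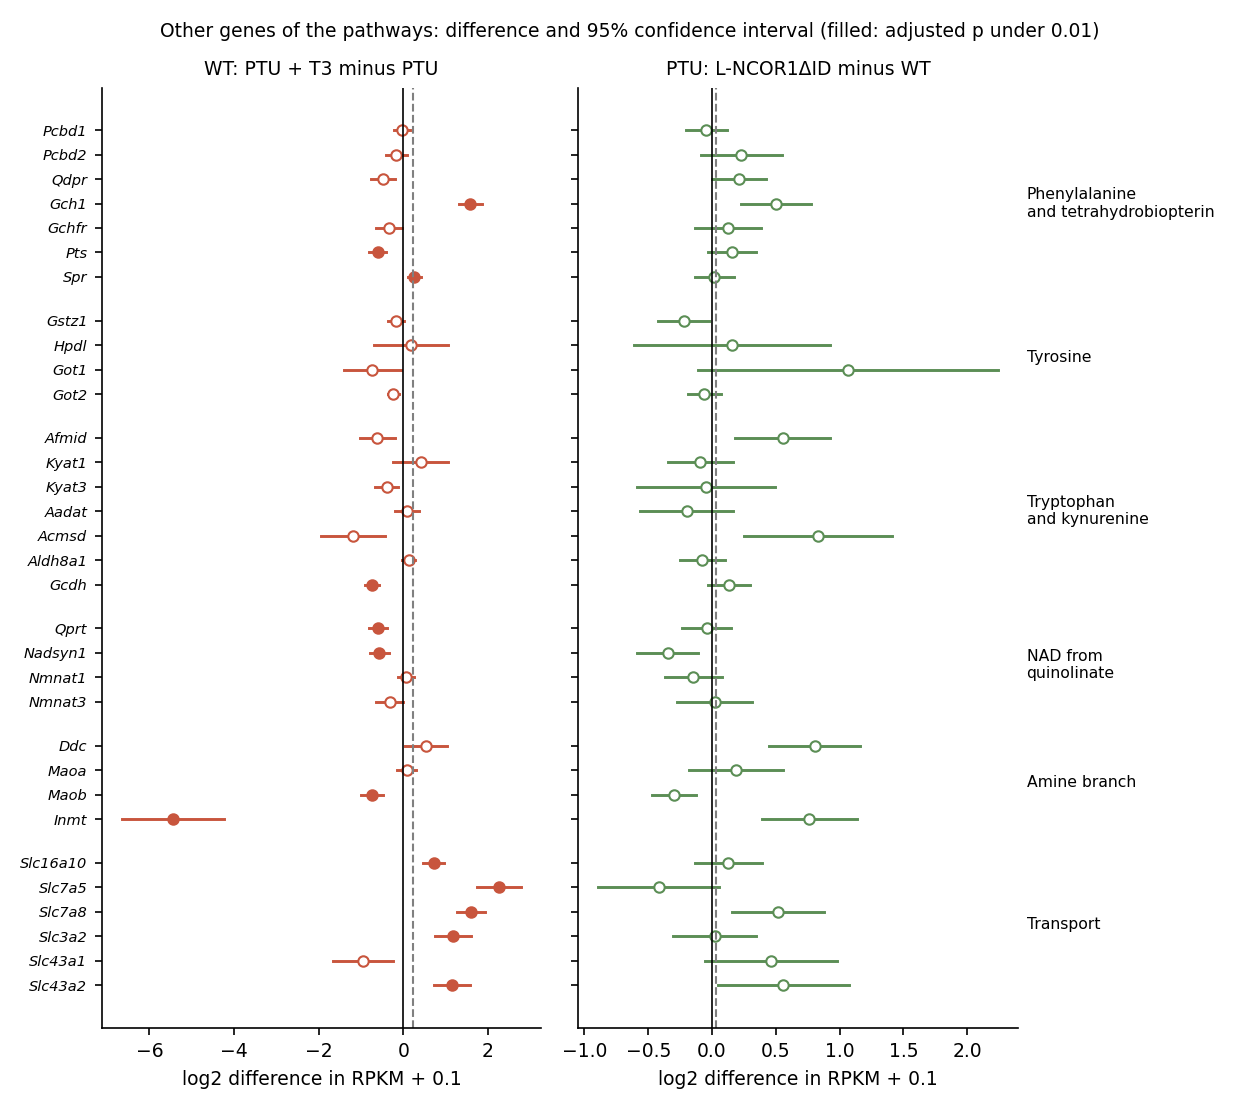
Difference in log2(RPKM + 0.1) and 95% confidence interval of the 32 other pathway genes tested, grouped by function, in hyperthyroid against hypothyroid WT mice (left) and in L-NCOR1ΔID against WT mice, both hypothyroid (right, with its own x axis). Filled points have a limma adjusted p under 0.01 and the dashed line is the median of all genes tested. On the left, 5 of 6 transport genes are filled on the higher side and Inmt lies at -5.44, and on the right no point is filled.

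Because Tat and Tdo2 respond to glucocorticoids, 11 genes of glucocorticoid action were examined as well. In response to T3, Nr3c1, the glucocorticoid receptor, rose from 12.2 to 14.6 RPKM to 20.5 to 23.1 RPKM (log2 fold change 0.73, adjusted p = 0.00012), and Sgk1 rose (1.43, adjusted p = 0.00032). Hsd11b1, which regenerates active glucocorticoid in liver, fell from 529.8 to 686.7 RPKM to 157.6 to 248.1 RPKM (-1.53, adjusted p = 9.13e-05). The target genes Tsc22d3 (-0.94, adjusted p = 0.00353) and Per1 (-1.17, adjusted p = 3.94e-05) fell, and the other 6 genes were not called. These are 2 of 11 higher and 3 of 11 lower, against 24.5% and 7.71% of all genes, and Tsc22d3 lost its call without hyperthyroid replicate 3. No direction was thus common to the list. None of the 11 genes was called in L-NCOR1ΔID mice. There, 0.725% of all genes were higher and 0.544% lower, so that few or no calls are met in 11 genes. Against L-NCOR1ΔID mice, hyperthyroid WT mice were higher in Nr3c1 (0.60, adjusted p = 0.000939) and Sgk1 (0.88, adjusted p = 0.00177) and lower in Per1 (-1.02, adjusted p = 0.00314). Of all genes, 15.5% were higher and 5.7% lower in that comparison. Nr3c1 lost its call under the median of gene ratios and Per1 without hyperthyroid replicate 3.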

How the data were processed

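According to the methods, the authors mapped reads to mm9 with STAR, counted them per RefSeq transcript with HOMER and deposited RPKM, scaled by the reads of each library. DESeq2, named in the submitters' processing notes, ran on counts that were not used here. The authors also deposited 37200 H3 acetylated regions, called with HOMER and merged over both marks and both hormone states, of which the coordinates were used. The remaining ChIP-seq measurements were not analysed here. Of 31370 transcripts, 1 without a gene name was omitted (up to 0.00079% of summed RPKM). Each gene was represented by its first transcript, and 0 columns of per-sample values were left unused. TSSs were those of GENCODE M1, which shares the build of mm9.

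A gene entered a test if it reached 0.1 RPKM in 4 or more of the 8 libraries compared. Log2(RPKM + 0.1) was tested in limma (version 3.58.1, in R 4.3.3) with trended variance, adjusted by Benjamini-Hochberg over all genes and called at an adjusted p under 0.01. Log2 fold changes are on this scale. The fit was tested on simulated data with known log2 changes of at least 1 in size and with spreads taken from hypothyroid WT libraries. Smaller changes and the spreads of the other groups were not covered. The labels do not tie a library to a mouse or a batch, so p-values measure the spread between libraries. Depth was estimated from the values that correspond to 1 read in 231 transcripts. Python 3.11.15, numpy 2.4.6, pandas 2.3.3 and matplotlib 3.10.9 were used.

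The 9 genes and the other gene lists were chosen with earlier results of these data known. Named genes were the 9 members in each comparison, Ido1, Acmsd, Afmid, Qprt and Gstz1, at most 8 other pathway genes called per comparison by adjusted p, the called glucocorticoid genes, and Thrsp, Dio1 and Ncor1. One pathway gene is not reported here. Among the markers, Cd68 was not analysed here and transferrin was matched as Trf. The alternatives were pseudocounts of 1 and 0.01, filters of a mean of 1 RPKM and of none, 1 fit over all 12 libraries, a block for the replicate number, untrended variance, further scaling to the median of gene ratios, a threshold of 0.05, the transcript of highest mean, and the omission of each library.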

Additional observations from a re-analysis of the deposited data

How the results depend on the processing

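Over the 9 genes and 18 alternatives, no direction changed for T3. The number of genes lower with T3 was 2 without a filter or without a variance trend in place of 4, and 2 to 4 with 1 library left out, where fewer samples were tested. The number higher was 0 under the median of gene ratios, 2 at an adjusted p under 0.05 and 1 to 2 with 1 library left out. Over all genes, 3413 higher and 1075 lower became 1729 and 1932 under the median of gene ratios, 5244 and 1636 at 0.05, and 2438 to 2978 and 746 to 994 with 1 library left out. For L-NCOR1ΔID, no member was called under any alternative, while 100 higher and 75 lower of all genes became 20 and 25 with the replicate block, 344 and 257 at 0.05, and 36 to 110 and 28 to 77 with 1 library left out. There were 63 higher without a variance trend and 118 lower with all 12 libraries in 1 fit. With 1 library left out, Kynu ranged from -0.21 to 0.0018 and Tat from -0.016 to 0.43.

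For hyperthyroid WT against L-NCOR1ΔID, the number of members lower was 1 without a filter or with the replicate block in place of 4, and 1 to 3 with 1 library left out. The number higher was 2 with a mean of at least 1 RPKM, with all 12 libraries in 1 fit and at 0.05, 0 under the median of gene ratios, and 1 to 2 with 1 library left out. Over all genes, 2176 higher and 799 lower became 1152 and 490 with the replicate block, 1052 and 1281 under the median of gene ratios, 3995 and 1412 at 0.05, and 1182 to 1905 and 469 to 767 with 1 library left out. Under the median of gene ratios Tat (-0.079) and Fah (-0.0052) changed sign, and with 1 library left out Kynu ranged from -0.16 to 0.053 and Tat from -0.14 to 0.33. The cause of these moves was not tested.

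The replicate numbers share only a number. Of 12 same-numbered pairs across groups, 1 had a correlation of deviations over 0.1 (range -0.12 to 0.17), and 3 correlated best with their own number. With the replicate block, Haao lost its T3 call (adjusted p = 0.018) and Tdo2, Haao and Hgd lost theirs against L-NCOR1ΔID (adjusted p = 0.015, 0.0243 and 0.0234). Of the other genes named, Spr and Alb lost theirs for T3, and Acmsd, Afmid, Qprt, Qdpr, Slc7a8, Slc3a2 and Per1 against L-NCOR1ΔID. The median number of acetylated regions was 4 within 50 kb and 9 within 200 kb in place of 6 within 100 kb. The intervals given set the precision at 4 libraries per group, and depth limits none of the 9 genes.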
